A study of Mus musculus with 6 samples.

Results

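The tumour necrosis factor (TNF) superfamily is a set of related trimeric ligands, most of them made as membrane proteins and released by proteases, and of receptors that carry cysteine-rich repeats outside the cell. Receptors with a death domain can engage caspases or the necroptosis kinases, and most of the others recruit TRAF adaptors that switch on NF-kB. In the eye, TNF is known as an inflammatory signal to the retinal pigment epithelium (RPE), the pigmented layer behind the photoreceptors. The genes described here were chosen by name: every symbol that starts with Tnfrsf or Tnfsf, together with Tnf, Lta, Ltb, Ltbr, Cd40, Cd40lg, Fas, Fasl, Cd27, Eda, Edar, Eda2r and Ngfr. Tnfrsf11a, Tnfsf11 and Tnfrsf11b were left out. The rule also named Cd70, but the values hold no gene of that symbol. The rule used no measured value and gave 43 of the 28043 genes in the tables, of which 25 are receptors, 17 are ligands and 1 is a non-coding antisense gene.

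Polyadenylated RNA of primary mouse RPE cells was sequenced from animals with proliferative vitreoretinopathy (PVR), a scarring disorder that the series title calls traumatic, and from normal animals, with 3 libraries labelled PVR and 3 labelled Normal. The labels used here give no strain, age, sex, way of inducing PVR, time point or pooling of animals, and nothing says that the replicates came from separate animals, so each p-value speaks only of the spread among the 6 libraries, and that spread may be technical. Values are normalised read counts, the reads of a gene divided by the library's size factor, and 1 read was worth between 0.906 and 1.14 normalised counts. Log2 changes are differences of group means of log2(normalised count + 1), PVR minus Normal, and come out too small where reads are few. An adjusted p is from limma, with Benjamini-Hochberg adjustment over all tested genes, and a gene passed the test at an adjusted p under 0.05.

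The libraries held between 15269983 and 19173187 reads. Rpe65, the retinoid isomerase gene of the RPE, was abundant in every library. It had 28403, 28578 and 38343 normalised counts in PVR replicates 1 to 3, and 88531, 82848 and 89000.0 in Normal replicates 1 to 3. The RPE marker Best1 was sparse, at 16.5, 22.8 and 7.56 in PVR and 10.3, 12.0 and 13.6 in Normal. Each other RPE marker had at least 467.9 in every library. Of 14 macrophage and microglia markers, 13 rose in PVR and Csf1r fell, and the summed level of the 14 was 56313, 81102 and 32980 in PVR against 11056, 10519 and 12048.5 in Normal. Without Csf1r, a choice made after seeing the data, the sums were 49946, 73527 and 24745 in PVR and 1713, 928 and 867 in Normal. Fibroblast markers (5 genes) summed to between 11662 and 17473 in PVR and between 2079 and 3628 in Normal, and all 5 rose. Neutrophil markers (4 genes) summed to 194 to 446 in PVR and 8.16 to 26.8 in Normal.

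Of the 43 members, 27 had enough reads to be tested, of which 11 rose in PVR, 2 fell and 14 did not pass the test. Over all 15766 genes tested, 17.9% rose and 12.9% fell, 30.8% in all. Of the 27 tested members 8 passed with a log2 change of at least 2, as did 6.56% of all genes tested. By edgeR 12 members rose and 2 fell (17.7% and 12.1% of all genes, 29.8% in all), by DESeq2 likewise 12 and 2 (18.3% and 12.3%, 30.6% in all), and with the replicate number as a block 13 and 2 (19.5% and 14.3%, 33.8% in all). The median log2 change was 1.16 over the 27 members and -0.02 over all genes. Every PVR library lay above every Normal library for 14 of the 27, and below for 2 (24.7% and 23.3% of all genes tested). The filter on low counts passes a gene that has reads in a single group, so the tested members are not a sample of the family. Of the 11 that rose, 10 encode receptors, of 20 tested (50%), and 1 a ligand, Tnfsf12, of 7 tested (14.3%). The 2 that fell, Tnfrsf19 and Tnfrsf10b, encode receptors. Among the 16 members with too few reads to test, 10 were ligands.

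**Figure D1:**
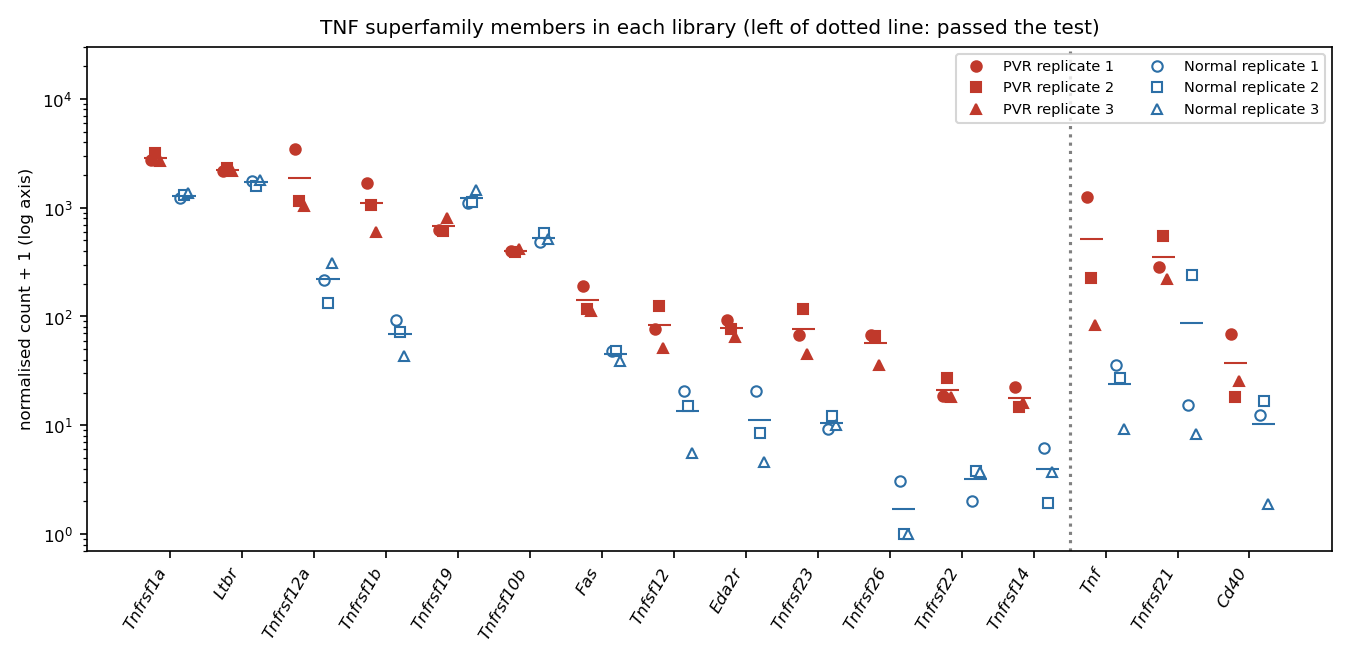
Normalised count + 1 on a log axis for the 13 members that passed the test and, right of the dotted line, for Tnf, Tnfrsf21 and Cd40, which did not. Each symbol is 1 library, filled for PVR and open for Normal, and short lines are group means. The groups do not overlap for the 13, whereas the Tnfrsf21 value of Normal replicate 2 (237) lies above that of PVR replicate 3 (221).

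Within the TNF group both receptors rose. The ligand was higher in every PVR library and missed the threshold in limma, but passed with the replicate number as a block. Tnfrsf1a encodes TNFR1, the widely expressed death domain receptor of TNF (chromosome 6, 125349362 to 125362484 on GRCm38). It had 2758, 3180.0 and 2705 normalised counts in PVR and 1223, 1297 and 1351 in Normal. The 3 libraries of each group lay close together and far from the other group (log2 change 1.16, SE 0.10, adjusted p = 9e-05, the smallest of the family). Tnfrsf1b encodes TNFR2, which lacks a death domain and is best known from leukocytes (chromosome 4, 145213463 to 145246870). Its level was 1684, 1056 and 599 in PVR and 92.8, 70.4 and 42.6 in Normal. The lowest PVR library was still 6 times or more above each Normal library (log2 change 3.95, SE 0.44, adjusted p = 0.00128). In these bulk samples a change in the number of cells of a type and a change in RNA per cell cannot be told apart. The macrophage marker sum moved with Tnfrsf1b between the groups, and its part in the result was not tested. Among the PVR libraries the sum was highest in replicate 2 and Tnfrsf1b in replicate 1, and both were lowest in replicate 3. Per kilobase of exon, Tnfrsf1b stood at 41.4%, 22.5% and 15.0% of Tnfrsf1a in PVR and at 5.15%, 3.68% and 2.14% in Normal. The groups did not overlap (exact two-sided permutation p = 0.1, the smallest that 3 against 3 libraries allow).

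Tnf itself (chromosome 17, 35199381 to 35202007) had 1245, 223 and 83.1 normalised counts in PVR, from 1209, 196 and 88 reads, and 35.04, 25.9 and 8.16 in Normal, from 34, 28 and 9 reads. All PVR libraries lay above all Normal libraries, but PVR replicate 1 held 15 times the level of replicate 3, and the 95% interval of the log2 change (3.79) ran from 0.97 to 6.60. The limma test therefore missed the threshold (adjusted p = 0.0549). With the replicate number as a block it passed (adjusted p = 0.000556), as it did by edgeR (0.0120) and DESeq2 (0.000633), without PVR replicate 1 (log2 change 2.73, 0.0293) and without PVR replicate 3 (log2 change 4.67, 0.0323). In 11 of the 18 alternatives it did not pass, among them limma-voom (adjusted p = 0.119) and no filter (0.144). Over all alternatives the adjusted p lay between 0.000556 and 0.154. Lta, which encodes lymphotoxin alpha and lies next to Tnf, had 6, 2 and 5 reads in PVR and 0, 5 and 6 in Normal, too few to test. Ltb, the third ligand gene at this locus, had 6, 5 and 4 reads in PVR and 12, 2 and 0 in Normal.

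The lymphotoxin and LIGHT receptors rose as well, by unequal amounts. Ltbr, the lymphotoxin beta receptor (chromosome 6, 125306571 to 125313885), had 2179, 2299.6 and 2160.0 normalised counts in PVR and 1772, 1585 and 1803 in Normal. The groups did not overlap but the change was small (log2 change 0.37, SE 0.10, adjusted p = 0.0190). Dropping PVR replicate 2 (adjusted p = 0.0617) or Normal replicate 2 (0.0935) ended the call, within a range of 0.00801 to 0.122 over all alternatives. Tnfrsf14 encodes HVEM, which binds both LIGHT and lymphotoxin alpha. Its level was 21.6, 13.7 and 15.1 in PVR and 5.15, 0.926 and 2.72 in Normal (log2 change 2.31, SE 0.59, adjusted p = 0.0151). These values rest on 49 reads in all in PVR and 9 in Normal, and dropping PVR replicate 1 ended the call (adjusted p = 0.0733; 0.00784 to 0.0742 over all alternatives). Tnfsf14, the gene for LIGHT itself, had 20, 15 and 8 reads in PVR and none in any Normal library. Its PVR mean of 15.1 ± 6.75 normalised counts (SD, n = 3) was at least 5.27-fold higher than the 2.86 that 3 reads per Normal library would give. It was too sparse for the filter, and passed with no filter (adjusted p = 0.0002), where 28043 genes were tested.

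Death receptors went different ways. Fas, the receptor of Fas ligand (chromosome 19, 34290666 to 34327772), rose and had 192, 117 and 112 normalised counts in PVR against 47.4, 47.2 and 38.1 in Normal. The lowest PVR value was over 2 times the highest Normal value (log2 change 1.61, SE 0.27, adjusted p = 0.00175). Fasl, its ligand, had 5, 2 and 3 reads in PVR and 0, 4 and 0 in Normal. Tnfrsf10b, which encodes the mouse death receptor of TRAIL (chromosome 14, 69767472 to 69784411), fell slightly. Its level was 401, 393 and 413 in PVR and 484, 589.9 and 511 in Normal, with no overlap (log2 change -0.39, SE 0.12, adjusted p = 0.0326). Dropping any 1 library except Normal replicate 1 ended that call (adjusted p = 0.0691, 0.0802 and 0.0504 without PVR replicates 1 to 3, 0.147 and 0.0703 without Normal replicates 2 and 3; 0.0259 to 0.178 over all alternatives). Tnfsf10, the TRAIL gene, was not tested, with 30, 7 and 9 reads in PVR and 4, 17 and 1 in Normal, and the groups overlapped.

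Tnfrsf21, which encodes death receptor DR6 (chromosome 17, 43016555 to 43089189), had 282, 551 and 221 normalised counts in PVR and 14.4, 237 and 7.25 in Normal. Normal replicate 2 lay within the PVR range and the other two Normal libraries far below it, so the difference did not pass (log2 change 3.39, 95% interval 0.03 to 6.75, adjusted p = 0.117). Without Normal replicate 2 the log2 change was 4.85 and the adjusted p 8.57e-05, within a range of 3.61e-05 to 0.38 over all alternatives. The same library stood apart in the glial water channel gene Aqp4, at 4.12, 29.6 and 4.72 in PVR and 0, 95.4 and 2.72 in Normal, and in the glial glutamate transporter gene Slc1a3, at 61.8, 70.6 and 34.0 in PVR and 18.6, 108 and 30.8 in Normal. Both were picked after their values were seen from a list of 5 Muller glia and astrocyte markers, and the others did not single out that library: in Normal, Gfap had 15.5, 15.7 and 23.6, Glul 31716, 37568 and 33714, and Rlbp1, which the RPE also expresses, 83947, 87454 and 96396. The 5, most of it Rlbp1 and Glul, summed to 75582, 71694 and 86769 in PVR and 115697, 125241 and 130167 in Normal, and the 5 rod and cone markers to 192, 692 and 655 in PVR and 131, 826 and 351 in Normal. The part of these in the Tnfrsf21 value was not tested. Tnfrsf25, which encodes DR3, had 19.6, 5.69 and 16.1 in PVR and 36.1, 22.2 and 18.1 in Normal and did not pass (adjusted p = 0.197). Reads of Tnfsf15, whose product TL1A binds DR3, came almost wholly from PVR replicate 1, with 20, 1 and 1 reads in PVR and 0, 2 and 0 in Normal.

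The 3 TNF receptor genes that lie side by side on mouse chromosome 7 all rose from low levels. In mouse, Tnfrsf22 and Tnfrsf23 encode decoy receptors that bind TRAIL without a working death domain. Tnfrsf23 (143665809 to 143685872) had 66.9, 117 and 44.4 normalised counts in PVR and 8.25, 11.1 and 9.06 in Normal (log2 change 2.78, SE 0.41, adjusted p = 0.000891). Tnfrsf22 (143634806 to 143649661) had 17, 23 and 18 reads in PVR and 1, 3 and 3 in Normal (log2 change 2.77, SE 0.53, adjusted p = 0.0037). Tnfrsf26 (143607659 to 143628722) had 65, 57 and 37 reads in PVR and 2, 0 and 0 in Normal, a ratio of 86.2 (95% Clopper-Pearson interval 23.5 to 718, counting error only; log2 change 5.23, adjusted p = 0.000305). No group overlapped for any of the 3. They are close paralogs, so how reads were shared among them is uncertain, and E230032D23Rik, on the opposite strand, shares 107 exon bases with Tnfrsf26 and 164 with Tnfrsf23.

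TWEAK and its receptor Fn14, a pair studied in tissue injury and repair, both rose. Tnfrsf12a, the Fn14 gene (chromosome 17, 23675445 to 23677468), had 3437, 1147 and 1030.4 normalised counts in PVR and 215, 132 and 308 in Normal. PVR replicate 1 stood about 3 times above the other PVR libraries, and all of them stood above Normal (log2 change 2.94, SE 0.57, adjusted p = 0.0144). Dropping PVR replicate 2 (adjusted p = 0.0523) or the filter (0.05015) ended the call, within a range of 1.68e-05 to 0.0721 over all alternatives. Tnfsf12, the TWEAK gene (chromosome 11, 69686250 to 69695849), was the only ligand gene to pass. It had 76.2, 123 and 50.1 in PVR and 19.6, 13.9 and 4.53 in Normal (log2 change 2.72, SE 0.53, adjusted p = 0.00433). Its order among PVR libraries differed from that of Tnfrsf12a, with replicate 2 highest. Of the 1515 exon bases of Tnfsf12, 731 are shared with Tnfsfm13, a transcript unit annotated across Tnfsf12 and Tnfsf13 on the same strand, so reads there could be counted for either. Tnfsfm13 itself had 20.6, 4.56 and 12.3 in PVR and 6.18, 14.8 and 0 in Normal and did not pass (adjusted p = 0.382).

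Of the ectodysplasin genes the receptor gene Eda2r rose and the ligand gene did not pass, and Tnfrsf19, grouped with them here, fell. Eda2r, a receptor of ectodysplasin A2 (chromosome X, 97333840 to 97377216), had 92.7, 75.2 and 64.2 normalised counts in PVR and 19.6, 7.41 and 3.63 in Normal (log2 change 3.06, SE 0.52, adjusted p = 0.00185). Tnfrsf19, the TROY gene (chromosome 14, 60963875 to 61046490), had 624, 605 and 800.0 in PVR and 1097, 1131 and 1447 in Normal. It was the member with the larger fall, without overlap (log2 change -0.86, SE 0.15, adjusted p = 0.00211), and passed under every alternative. Of 10 RPE markers 6 fell too (Rpe65, Rlbp1, Rgr, Lrat, Rdh5 and Krt8), with a median log2 change of -0.75 over the 10. The other 4 did not pass and had positive log2 changes: Best1 0.24, Ttr 0.20, Tyr 0.12 and Pmel 0.43. Of these, Ttr lay above Normal in every PVR library. The 10 summed to 598402, 589521 and 644674 in PVR and 847164, 834510 and 899633 in Normal, and their part in the Tnfrsf19 value was not tested. Eda had 42.2, 25.1 and 36.8 in PVR and 25.8, 39.8 and 37.2 in Normal (log2 change 0.01, 95% interval -0.74 to 0.76, adjusted p = 0.985). The sign of that change turned under scaling to library totals and without some libraries. Edar, the receptor of ectodysplasin A1, had 9 reads in all in PVR and 5 in Normal. Ngfr, the low-affinity neurotrophin receptor gene, had 19.6, 3.42 and 16.1 in PVR and 8.25, 18.5 and 3.63 in Normal and did not pass (adjusted p = 0.793).

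**Figure D2:**
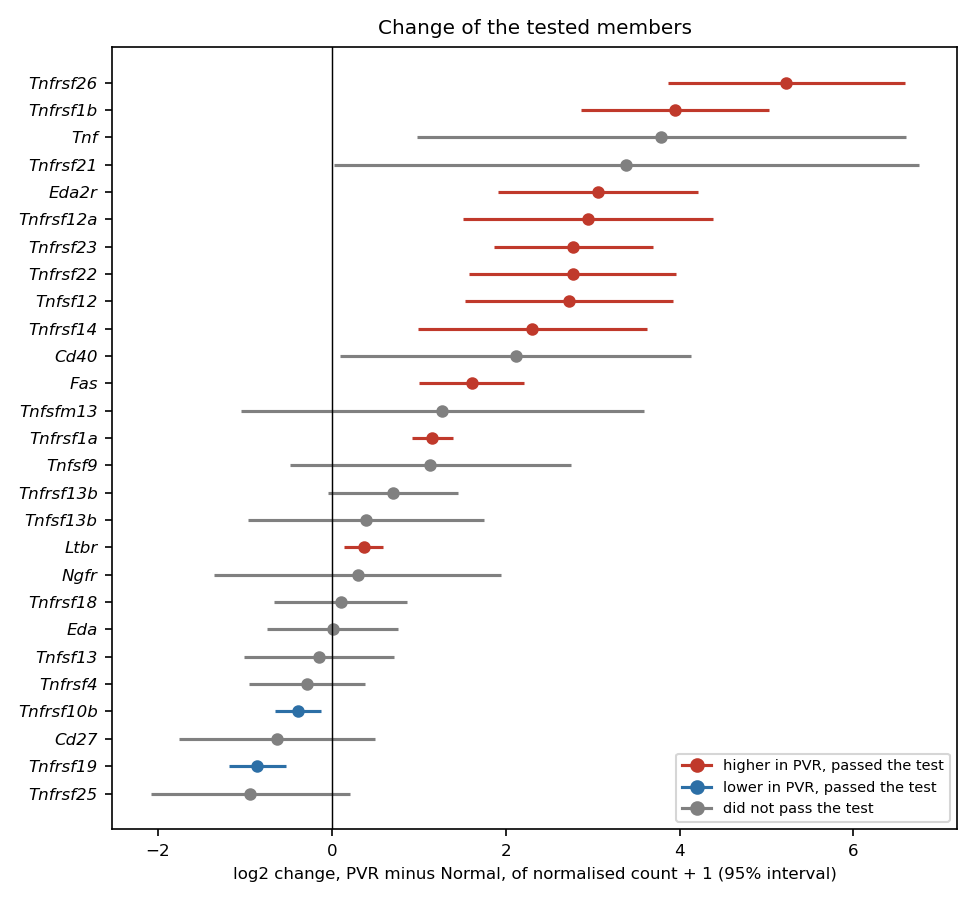
Log2 change, PVR minus Normal, of the 27 tested members (dots) with its 95% interval from limma (lines), from the highest at the top. Red marks the 11 that rose, blue the 2 that fell and grey the 14 that did not pass. The intervals of Tnf (0.97 to 6.60), Tnfrsf21 (0.03 to 6.75) and Cd40 (0.10 to 4.13) exclude 0 but their p-values did not pass after adjustment.

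Genes of the B cell survival factors BAFF and APRIL showed no change that passed: of 7 genes, 4 were tested, and none passed in limma, edgeR or DESeq2 or had an unadjusted limma p under 0.05. Tnfsf13b (BAFF) had 19.6, 12.5 and 4.72 normalised counts in PVR and 11.3, 9.26 and 4.53 in Normal (adjusted p = 0.66). Tnfsf13 (APRIL) had 50.5, 27.3 and 36.8 in PVR and 42.3, 63.0 and 26.3 in Normal (adjusted p = 0.80). It shares at most 1204 of its 1637 exon bases with Tnfsfm13 or Tnfsf13os, since a base shared with both was counted for each. Among their receptors, Tnfrsf13b (TACI) had 30.9, 47.8 and 29.3 in PVR and 20.6, 21.3 and 21.8 in Normal. Those groups did not overlap, yet the test did not pass (log2 change 0.70, 95% interval -0.04 to 1.45, adjusted p = 0.14). Tnfrsf17 (BCMA) had 5 reads in each group and Tnfrsf13c (the BAFF receptor) 8 in PVR and 1 in Normal. The 4 B cell markers summed to 33.0, 10.3 and 13.2 in PVR and 9.28, 2.78 and 5.44 in Normal. The antisense gene Tnfsf13os had 8, 11 and 0 reads in PVR and 4, 6 and 7 in Normal, and overlaps Tnfsf13 on the opposite strand.

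The costimulatory ligands and receptors, which lymphocytes and antigen-presenting cells use to tune T cell responses, held 11 members, of which 5 were tested and none passed in limma, edgeR or DESeq2. At an unadjusted p under 0.05 there was 1, Cd40 (0.0422). Cd40, the receptor of CD40 ligand on antigen-presenting cells, had 68.0, 17.1 and 24.6 normalised counts in PVR and 11.3, 15.7 and 0.906 in Normal. PVR replicate 2 stood barely above Normal replicate 2, and the test did not pass (log2 change 2.11, adjusted p = 0.106). The log2 change was 1.14 without Normal replicate 3, the lowest of 1.14 to 2.71 with 1 library left out. It passed with the replicate number as a block (adjusted p = 0.0443), within a range of 0.0443 to 0.27 over all alternatives, and neither edgeR (0.0996) nor DESeq2 (0.0511) called it. The 5 dendritic cell markers summed to 281, 158 and 177 in PVR and 116, 83.3 and 99.7 in Normal. The largest in every library was Zbtb46, at 137, 107 and 106 in PVR and 101, 74.1 and 92.4 in Normal, which did not pass (adjusted p = 0.213). Flt3 (log2 change 3.99) and Ccr7 (2.75) rose, and Clec9a and Xcr1 were not tested. The part of these 5 markers in the Cd40 value was not tested. Cd40lg had 1 read in PVR and 3 in Normal. Tnfrsf18 (GITR) had 42.2, 101 and 75.6 in PVR and 82.5, 55.6 and 57.1 in Normal (log2 change 0.10, 95% interval -0.66 to 0.87). Tnfrsf4 (OX40) had 28.8, 26.2 and 37.8 in PVR and 36.1, 37.0 and 39.0 in Normal (log2 change -0.28, 95% interval -0.95 to 0.39). The sign of the Tnfrsf18 change turned without PVR replicate 2 (-0.18), and 414 of its exon bases lie opposite Gm16008. Neither receptor passed, and their ligands were close to 0: Tnfsf18 had 3 reads in PVR and none in Normal, and Tnfsf4 had 2 in each group.

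Cd27 had 19.6, 9.11 and 12.3 normalised counts in PVR and 39.2, 17.6 and 12.7 in Normal (adjusted p = 0.379). Tnfsf9, the ligand of CD137, had 103, 25.1 and 22.7 in PVR and 32.0, 21.3 and 7.25 in Normal (adjusted p = 0.259), with PVR replicate 1 again the highest; 192 of its exon bases lie opposite Gm11110. Its receptor gene Tnfrsf9 had 12, 7 and 7 reads in PVR and 0, 2 and 0 in Normal, a ratio of 14.1 (95% Clopper-Pearson interval 3.53 to 123). Reads of CD30 and its ligand were found in PVR libraries alone. Tnfsf8, the CD30 ligand gene, had 4, 7 and 9 reads in PVR and none in Normal, at least 2.40-fold higher than 3 reads per library. Tnfrsf8, the CD30 gene, had 2, 5 and 4 reads in PVR and none in Normal, at least 1.34-fold higher. With no filter these 3 passed as well (adjusted p = 0.00712 for Tnfrsf9, 0.00432 for Tnfsf8 and 0.0251 for Tnfrsf8). The T cell receptor subunit genes Cd3e, Cd3d and Cd3g were sparse in the same libraries, at 3.09, 3.42 and 5.67 normalised counts of Cd3e in PVR and 0, 0.926 and 0 in Normal. The 7 T cell markers summed to 61.8, 54.7 and 64.2 in PVR and 25.8, 9.26 and 9.06 in Normal, most of it Cd4, and the 3 NK cell markers to at most 8.50 in PVR and 3.09 in Normal.

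Promoter windows of RefSeq (250 bases before to 50 after a transcript start, GRCm38.p6) were matched by symbol for 34 members. The windows were searched on both strands for the kappaB consensus, the site that NF-kB binds, and for TGANTCA, which takes in the core of the AP-1 site. The kappaB consensus was found for 3 of 34 members, Tnfrsf8, Tnfrsf9 and Ltb (8.82%, against 5.14% of 27025 genes), and for none of the 9 members with a window that passed the test. TGANTCA was found for 6 of 34 (17.6%, against 8.97% of genes): Tnfrsf8, Tnfrsf9, Tnfsf13b, Tnfsf13, Tnfsf14 and Fas. A match describes letters in a window, not a bound site. Stretches around 1 match before the start are shown for Tnfrsf8, Tnfrsf9 and Tnfsf14, which had reads mainly in PVR libraries (the TGANTCA matches of Tnfrsf8 and Tnfrsf9 are not shown), for Fas, which passed the test, and for Ltb, with the motif in capitals, 5′ to 3′ on the gene's strand.
Tnfrsf8 (kappaB, chr4:145315303-145315352, minus strand): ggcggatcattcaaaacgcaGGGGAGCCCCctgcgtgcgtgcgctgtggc
Tnfrsf9 (kappaB, chr4:150927936-150927985, plus strand): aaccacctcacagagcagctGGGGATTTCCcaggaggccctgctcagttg
Ltb (kappaB, chr17:35194400-35194449, plus strand): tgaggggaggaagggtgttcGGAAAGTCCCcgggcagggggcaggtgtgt
Tnfsf14 (TGANTCA, chr17:57194315-57194361, minus strand): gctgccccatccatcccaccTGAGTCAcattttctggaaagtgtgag
Fas (TGANTCA, chr19:34290428-34290474, plus strand): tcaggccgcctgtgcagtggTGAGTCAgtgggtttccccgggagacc
In Tnfrsf9 the consensus matches at a pair of overlapping positions, of which the upstream one is marked. In Tnfrsf8 and Ltb the consensus reads on the opposite strand.

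The order of levels within the family was compared per kilobase of annotated exon, which assumes reads along the whole transcript. In PVR libraries Tnfrsf1a (mean 1112), Tnfrsf12a (969) and Ltbr (940.0) led, followed by Tnf (315.5), Tnfrsf1b (291) and Tnfrsf19 (143). In Normal libraries Ltbr (730.5) led, followed by Tnfrsf1a (498), Tnfrsf19 (258.5), Tnfrsf12a (113) and Tnfrsf10b (97.0). The first 3 in PVR cannot be put in order, since the Tnfrsf12a values of single libraries ran from 533 to 1779. The place of Tnf rested on PVR replicate 1, since it had 760, 136 and 50.7 per kilobase in PVR, against 441, 276.5 and 157 of Tnfrsf1b, and in replicate 3 it also lay below Tnfrsf19, Tnfrsf10b, Fas and Tnfrsf21. Ltbr, Tnfrsf1a and Tnfrsf19 together made up 44.6%, 63.6% and 67.1% of the summed receptor level in PVR and 78.8%, 78.7% and 80.8% in Normal. Tnfrsf12a and Tnfrsf1b together made up 46.6%, 23.7% and 21.7% in PVR and 7.34%, 4.85% and 8.65% in Normal. The summed ligand level was 976, 281 and 152 per kilobase in PVR and 103, 105 and 40.6 in Normal, against a summed receptor level of 4761, 3665 and 3174 in PVR and 1849, 1794 and 1972 in Normal. The receptor sum exceeded the ligand sum in every library. Tnf held 77.8%, 48.5% and 33.3% of the ligand sum in PVR and 20.7%, 15.0% and 12.3% in Normal.

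**Figure D3:**
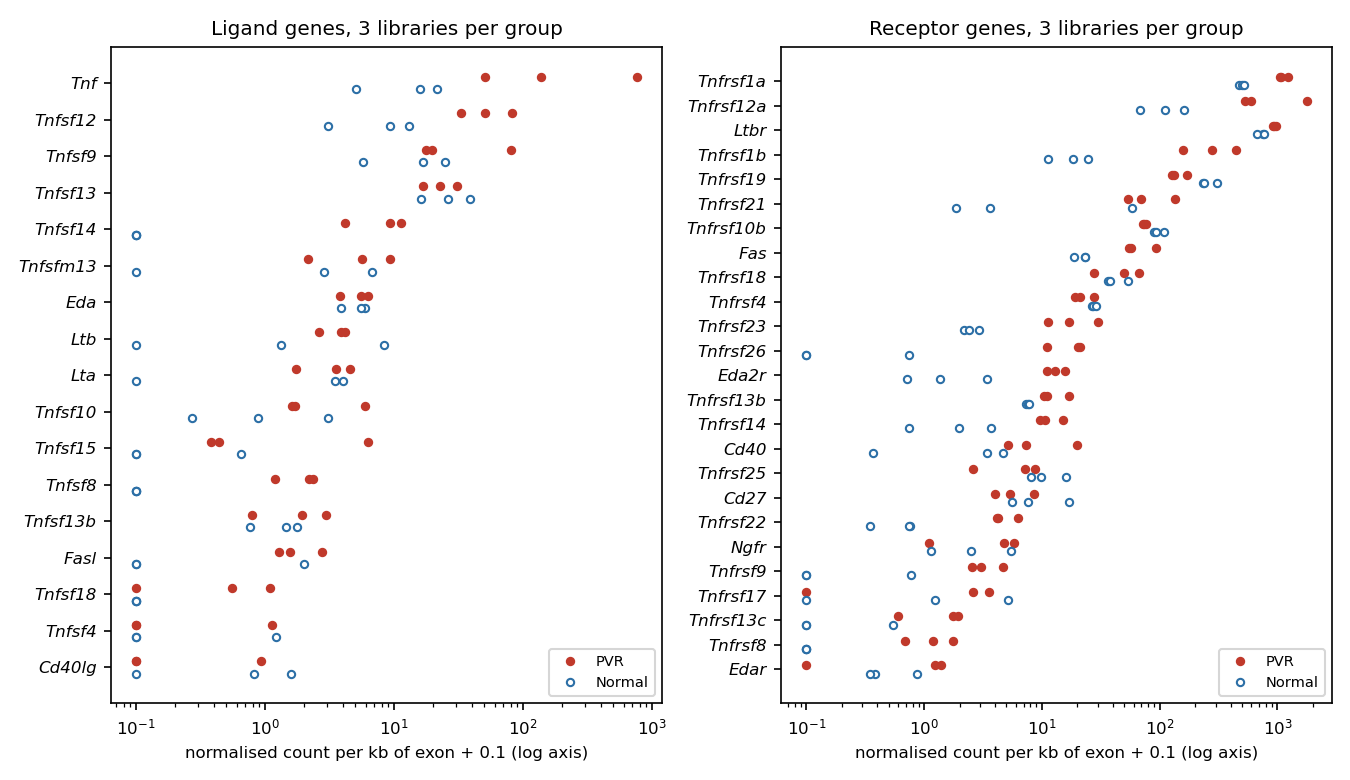
Normalised count per kilobase of exon + 0.1, on a log axis, for 17 ligand genes (left) and 25 receptor genes (right), ordered by the PVR mean. Each dot is 1 library, filled for PVR (upper) and open for Normal (lower), and dots at 0.1 are libraries with no read. Ligand genes other than Tnf stayed below 100 per kilobase in all 6 libraries, and Tnfrsf1a and Ltbr stayed above 400 in all 6.

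The PVR libraries were not alike in these genes. Of the 11 members that rose, PVR replicate 3 held the lowest PVR value for 10, all but Tnfrsf14, as it did for 74.1% of all genes that rose. PVR replicate 1 held the highest value for 6 of the 11 (Tnfrsf1b, Tnfrsf12a, Tnfrsf14, Tnfrsf26, Eda2r and Fas) and replicate 2 for 5 (Tnfrsf1a, Ltbr, Tnfrsf22, Tnfrsf23 and Tnfsf12), against 43.3% and 50.8% of all genes that rose. Tnf, Cd40, Tnfsf9, Tnfsf10 and Tnfsf15, which did not pass or were not tested, were also highest in replicate 1. The macrophage marker sum was highest in replicate 2, and most of it was Lyz2 (32209, 53474 and 16984 in PVR). Most of the other markers were also highest in replicate 2: Cd68 (2354, 3330 and 1410), Trem2 (1524, 1867 and 704), Itgam, Adgre1, Ptprc, C1qb, Fcer1g, Cx3cr1 and Mrc1. The markers C1qa (4279, 3507 and 1576 in PVR), Tyrobp (1745, 1593 and 632) and Aif1 (147, 133 and 40.6) were highest in replicate 1, and Csf1r in replicate 3. The part of these cells in the differences among PVR libraries was not tested. Members took 0.0762%, 0.0596% and 0.0520% of all reads in PVR and 0.0330%, 0.0350% and 0.0333% in Normal.

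Genes of TNF receptor signalling were read from a list of 55, all of them tested. Not all act downstream of the receptors, since the list includes 5 shedding genes and the receptor gene Relt. Of these, 25 rose and 1 fell (45.5% and 1.82%, against 17.9% and 12.9% of all genes tested), with a median log2 change of 0.53. With the replicate number as a block 28 rose and 1 fell (19.5% and 14.3% of all genes): Rela, Tnfaip2 (adjusted p = 0.0382) and Tnfaip8 (0.0191) were added, and the gene that fell was Mapk9 in place of Chuk. Of the 6 genes of the death arm, 5 rose, among them the necroptosis kinase gene Ripk3, at 55.6, 79.7 and 34.9 normalised counts in PVR against 5.15, 5.56 and 5.44 in Normal (log2 change 3.10, adjusted p = 0.000591). Its substrate gene Mlkl had 54.6, 37.6 and 23.6 in PVR and 2.06, 2.78 and 6.34 in Normal (log2 change 3.09, adjusted p = 0.00184). Bid, which links caspase-8 to mitochondria, had 186, 233 and 139 in PVR and 39.2, 65.8 and 39.9 in Normal (log2 change 1.94, adjusted p = 0.000891). Casp8 rose less, with 401, 557 and 371 in PVR and 289.6, 261 and 300.0 in Normal (log2 change 0.62, adjusted p = 0.0186), a call lost without PVR replicate 2 (adjusted p = 0.0535), Normal replicate 1 (0.0525) or Normal replicate 2 (0.0551). Cflar, which encodes the caspase-8 inhibitor c-FLIP, had 4365, 3058 and 3666 in PVR and 4181, 3949.8 and 4021 in Normal and did not pass (adjusted p = 0.436).

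Of the 5 NF-kB subunit genes, 4 rose (Nfkb1, Nfkb2, Relb and Rel), as did 3 of the 5 genes of the I kappa B family. Nfkb1 lost its call without Normal replicate 1 (adjusted p = 0.0624) or 3 (0.0664), Relb without Normal replicate 1 (0.0837) or 2 (0.0731) and with no filter (0.0713), and Nfkb2 with replicates 1 and 2 only (0.0514). Rel had 1338, 1167 and 847 normalised counts in PVR and 371, 234 and 412 in Normal (log2 change 1.73, adjusted p = 0.00164). Rela, the main activating subunit gene, lay above Normal in every PVR library but missed the threshold (log2 change 0.59, adjusted p = 0.0505), and passed with the replicate number as a block (0.0232) and by DESeq2 (0.0159). The inhibitor gene Nfkbie had 357, 229 and 212 in PVR and 59.8, 91.7 and 68.9 in Normal (log2 change 1.83, adjusted p = 0.000666). Bcl3, a nuclear member of that family, had 1076, 612 and 345 in PVR and 73.2, 47.2 and 32.6 in Normal (log2 change 3.63, adjusted p = 0.00179). The feedback inhibitor gene Nfkbia had 5654, 2669 and 1794 in PVR and 864, 655 and 647 in Normal (log2 change 2.07, adjusted p = 0.0196). Nfkbia lost its call without PVR replicate 2 (adjusted p = 0.0720), Normal replicate 2 (0.0664) or Normal replicate 3 (0.0700) and with no filter (0.0633).

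Of the 11 genes of kinases and their partner proteins that carry the signal, Ikbkb and Map3k14 rose and Chuk fell. Chuk had 1558, 1671 and 1641 normalised counts in PVR and 1936, 1961 and 1989 in Normal (log2 change -0.27, adjusted p = 0.0461), a call lost without each of the 6 libraries in turn (adjusted p between 0.0738 and 0.132) and with the replicate number as a block (0.0520). Ikbkb (log2 change 0.37, adjusted p = 0.0350) lost its call under scaling to library totals (0.111), with no filter (0.0536) and without any 1 library except PVR replicate 3 (0.0546 to 0.121). Of the genes of this group with the next smallest p among lower values, Tab2 had 2038, 2041 and 1896 in PVR and 2330.3, 2297 and 2411 in Normal (adjusted p = 0.0810). Mapk9 had 811, 1095 and 931 in PVR and 1058, 1226 and 1206 in Normal (adjusted p = 0.1002), and Tab1 had 414, 528 and 569.5 in PVR and 654, 618 and 595 in Normal (adjusted p = 0.108). None of these 3 passed, though Tab2 did under scaling to library totals (0.0289) and Mapk9 with the block (0.0464). Of 11 adaptor genes, Traf1, Traf4, Ripk1, Tnip1 and Tnip2 rose. Traf1 lost its call without PVR replicate 1 (adjusted p = 0.137), Normal replicate 2 (0.0809) or Normal replicate 3 (0.1245). Traf4 lost it without PVR replicate 1 (0.0610) or 2 (0.0930) or Normal replicate 1 (0.0839) or 2 (0.0872). Tnip2 lost it by edgeR (0.0506) and without PVR replicate 1 (0.123) or 2 (0.0592) or Normal replicate 2 (0.0771) or 3 (0.1298). Of the 5 shedding genes, which free ligands and receptors from the membrane, Adam17, Rhbdf1 and Rhbdf2 rose. Rhbdf2, which encodes the iRhom partner of the TNF-releasing protease ADAM17, had 1305, 1067 and 762 in PVR and 317, 169 and 266 in Normal (log2 change 2.07, adjusted p = 0.00143). Adam17 had 902, 1098 and 784 in PVR and 559, 708 and 656 in Normal (log2 change 0.53, adjusted p = 0.0217), and lost its call without PVR replicate 2 (adjusted p = 0.0739), Normal replicate 1 (0.0879) or Normal replicate 3 (0.0524). Of 8 ubiquitin-editing genes, Birc3 and Tnfaip3 rose, but Tnfaip3 lost its call with no filter (adjusted p = 0.0968) and without PVR replicate 2 (0.111) or Normal replicate 1 (0.0753), 2 (0.0880) or 3 (0.106). Birc3 encodes an inhibitor of apoptosis that TRAF adaptors recruit, and had 595, 464 and 292 in PVR and 160, 163 and 126 in Normal (log2 change 1.53, adjusted p = 0.00203). The macrophage markers given above rose in the same libraries, and their part in these changes was not tested. Of the 25 genes that rose, 13 passed under every alternative in which they were tested and 12 missed the threshold under at least 1.

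**Figure D4:**
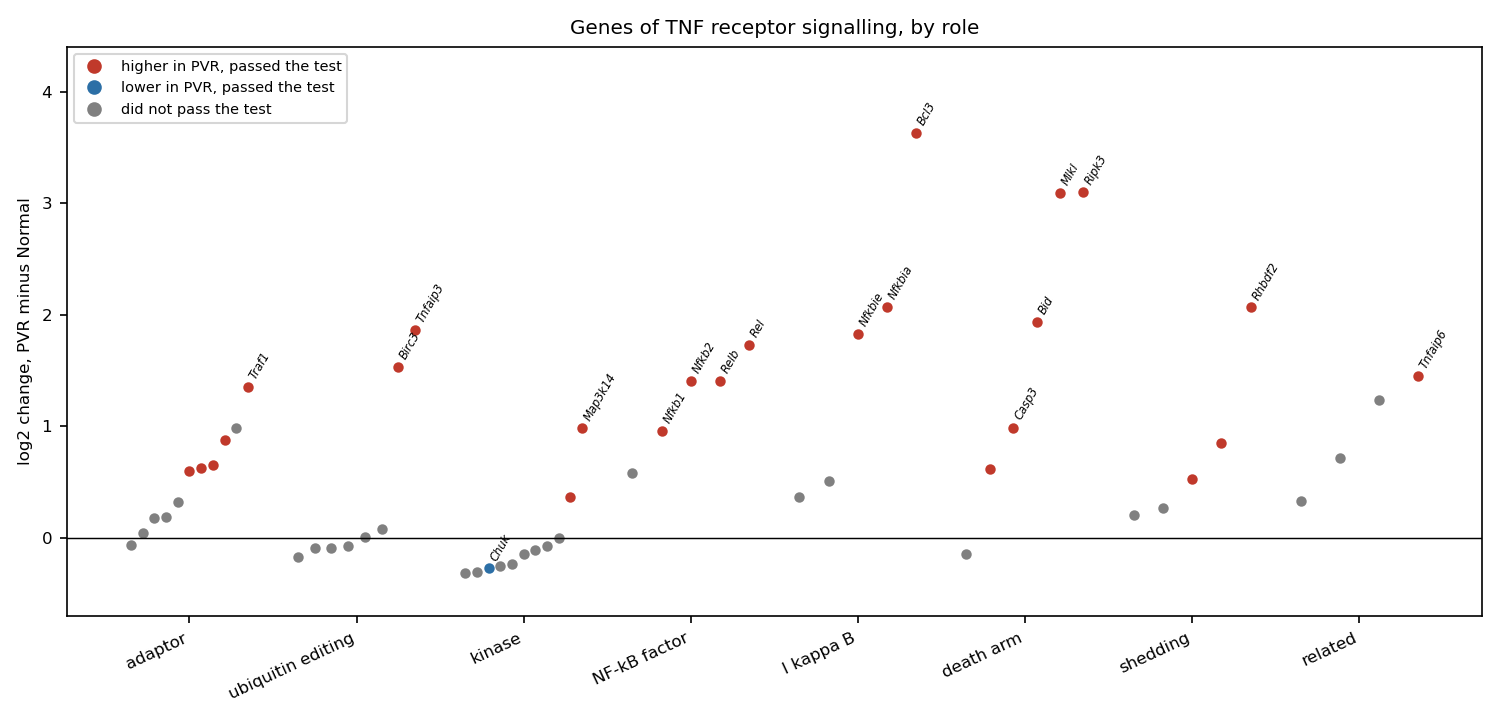
Log2 change, PVR minus Normal, of 55 genes of TNF receptor signalling, grouped by role along the x axis, where a dot is a gene. Red marks the 25 that rose, blue the 1 that fell (Chuk) and grey those that did not pass, and names are printed for changes above 0.9 or below 0 that passed. The largest change is that of Bcl3 (3.63), and in the group of kinases and their partners Map3k14 (0.98) lies farthest from 0.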

How the data were processed

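The authors deposited a normalised count signal for each gene symbol, which the values show to be reads over a library's size factor. Multiplied back, 100% of values in each library came out whole within 0.001 reads, and these reads were used. The submitters' processing notes list build mm10 and DESeq2 but not what each was used for. Aligner, counting program and use of strand: not given in the sources used here.

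Groups and replicate numbers come from the sample titles. Because the values are normalised, genes were compared with limma 3.58.1 under R 4.3.3, after taking log2 of the normalised count plus 1, with trended and robust variance moderation, for genes that passed filterByExpr of edgeR (minimum count 10), and was tried on simulated data first. Alternatives were edgeR 4.0.16, DESeq2 1.42.0, limma-voom, other filters, pseudocounts and scalings, a replicate block, and left-out libraries. Deviations of same-numbered PVR and Normal libraries from their group means correlated over tested genes at r = 0.206, 0.195 and 0.179, and of other pairs at -0.137 to -0.0689. The values of other pairs are no separate evidence, since the deviations within a group sum to 0 for each gene. By their own values same-numbered libraries deviated weakly alike, but the labels do not say what they share. A floor of 3 reads is what a count of 0 allows, and floors and intervals of counts cover counting error only. No 2 libraries of a group were duplicates (mean chi-square per gene at least 19.9).

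Coordinates and exon lengths are from GENCODE M21 (GRCm38), in which all 43 members were found, and 8 share exon bases with another gene. All members are named, with values in every library for those that passed, for untested members with at least 10 reads in 1 library, and for Tnf, Tnfrsf1a, Tnfrsf1b, Fas and Fasl. Of the signalling list, the 4 smallest p in each direction were to be given, and Casp8, Cflar, Rel, Rela, Bcl3, Nfkbia, Mlkl, Adam17, Birc3, Tnfaip2 and Tnfaip8 were added after their values were seen, as were the single marker genes and the promoter motifs. The members and lists were chosen with earlier results of these data known.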

Additional observations from a re-analysis of the deposited data

How the results depend on the processing

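The number of members that rose was 11, and 9 to 14 over the 18 alternatives, with 13 under the replicate block, which changed no member's call other than those of Tnf and Cd40. Leaving out 1 library gave 9 to 13. The number that fell was 2, but 1 with no filter, with replicates 1 and 2 only and without Normal replicate 2 and PVR replicate 3 together, and 1 to 2 when 1 library was left out, since Tnfrsf10b lost its call. Of the 27 tested members, 15 kept their direction and side of the threshold under every alternative in which they were tested, 9 of them among the 13 that passed. Of these 15, Tnfrsf22 had a value in 17 of the 18 alternatives and Tnfsfm13 in 16. Signs turned for members that had not passed: Eda under scaling to library totals (-0.062) and when 1 library was left out (-0.18 to 0.22), Tnfrsf18 with replicates 1 and 2 only (-0.047), without Normal replicate 2 and PVR replicate 3 together (-0.066) and with 1 left out (-0.18 to 0.45), Tnfsf13 without those 2 libraries (0.15) and with 1 left out (-0.47 to 0.15), Ngfr with replicates 1 and 2 only (-0.50) and with 1 left out (-0.22 to 0.99), and Tnfsf13b with 1 left out (-0.013 to 0.91). Of the signalling list 25 rose, 17 to 28 over all alternatives (28 under the replicate block and by DESeq2, and 17 to 25 when 1 library was left out). The number that fell was 1, but 0 with no filter, with replicates 1 and 2 only and without Normal replicate 2 and PVR replicate 3 together, 2 under scaling to library totals and 0 to 1 with 1 library left out. Over all genes 2825 rose (2193 to 2844 with 1 left out) and 2033 fell (1307, without Normal replicate 1, to 2026). The cause of these differences was not tested. Depth limits the 16 untested members, none of which had more than 30 reads in a library.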
